A study of Mus musculus with 2 samples.

Results

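Glutamate, GABA and glycine are the fast transmitters of the hypothalamus, and the genes of their receptors were compared between 2 microarrays of sorted AgRP neurons. Members were all genes whose symbol names a subunit of an AMPA, kainate, NMDA or delta glutamate receptor, a metabotropic glutamate receptor, a GABAA or GABAB receptor subunit, or a glycine receptor subunit. The platform annotation gave 47 such genes, of 22296 symbols in all, with 922 probe sets between them (a probe set is a small group of array probes summarised as 1 value). All 47 symbols are current in the RefSeq mouse table.

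The first array holds RNA of neurons from FoxO1 KO mice, and the second that of neurons from mice with a FoxO1 heterozygous KO, which serve as the control and so carry a FoxO1 deletion too. Both are hypothalamic neurons expressing agouti-related peptide, isolated by FACS from age- and sex-matched littermates on a mixed genetic background. The Cre driver or reporter, the age, the sex and the number of mice per array are not stated in the labels. With 1 array per genotype there is no replicate and no test, and every difference below separates 2 arrays.

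Values are log2 signals, and a difference is KO minus heterozygous KO on that scale. A gene's difference is the median over its probe sets whose mean signal reached 5.86, the median of all probe sets, and a level is the median of the same probe sets on 1 array. The 2 medians are taken separately, so a difference can depart from the gap between levels. A probe set can reach that floor through 1 bright array alone, which favours wide gaps among those kept. Of the 47 members 46 had the 3 such probe sets needed, as had 16639 genes in all. The exception was Gabrr3, a rho subunit, whose 2 probe sets above that floor stood at 6.94 and 8.40 on the KO array against 6.73 and 7.50 on the heterozygous one. An SD given beside a difference is over the probe sets of the gene and says nothing of the spread between mice.

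The level of Foxo1 itself was 7.46 in KO neurons, against 7.98 in heterozygous neurons, a difference of -0.48 with all 8 probe sets lower. Agrp (KO 12.4, heterozygous 12.0) and Npy (KO 12.2, heterozygous 12.3), the peptides that define these neurons, were bright on both arrays. Of the 12 marker genes of AgRP neurons, 7 were above 0 and none differed by 2-fold (from Ghsr at -0.60 to Mc3r at 0.52). Markers of other cells gave signal on both arrays as well, and fewer cells of a type cannot be told apart from less RNA per cell. All 11 mature oligodendrocyte genes evaluated were below 0 (median -1.11), of which 6 were past the 2-fold rule given below, led by Ugt8a, Mag, Cnp and Trf at -2.98, -2.12, -2.10 and -1.52. Their summed linear signal was 1836 in KO neurons, against 4769 in heterozygous neurons. All 12 oligodendrocyte precursor genes were below 0 too (median -0.53), of which 4 were past the rule (Pdgfra, Gpr17, Enpp6 and Lhfpl3), and their summed signal was 1581 on the KO array against 3434 on the heterozygous one. Slc17a6, the vesicular glutamate transporter of hypothalamic excitatory neurons, stood at 5.40 in KO and 9.11 in heterozygous neurons, a difference of -4.29 with 9 of 11 probe sets lower, but of -1.15 with no floor. Of 10 pan-neuronal genes 9 were below 0 (median -0.16, from Syt1 at -0.97 to Elavl4 at 0.13), none past the rule and 3 lower by 1.5-fold under it. Of 12 markers of other hypothalamic neurons 8 were below 0 (median -0.16), and the peptide genes Npvf (-2.36) and Oxt (-1.01) were past the rule. Medians of the astrocyte, microglia and vascular lists were -0.20, -0.11 and -0.37, with 7 of 10, 7 of 9 and 8 of 8 genes below 0. None of these markers was past the rule. Of all evaluated genes 65.2% were below 0. The part these cells have in the receptor values was not tested.

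Ionotropic receptors are channels opened by the transmitter. AMPA and kainate receptors carry fast excitation, NMDA receptors pass calcium when glutamate binds a depolarised cell, and GABAA and glycine receptors pass chloride. Metabotropic glutamate receptors and GABAB receptors act through G proteins. AgRP neurons receive excitatory input that rises with fasting and inhibitory input from their neighbours, and these genes encode the receptors for both.

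By their median the receptor genes as a group differed little between the arrays. Their median difference was -0.14 (quartiles -0.29 and 0.08), against -0.11 (quartiles -0.29 and 0.09) for all evaluated genes, and 31 of 46 lay below 0, where 65.2% of all genes did. Against the median of all genes, 25 lay below and 21 above. For 24 of the 46 the difference was under 0.25 in size, and for 38 it was smaller than the SD over the probe sets. Neither count was taken over all evaluated genes, so they do not compare the receptor genes with others. Across the 46 genes, which are not independent replicates, levels on the 2 arrays correlated at r = 0.871.

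**Figure D1:**
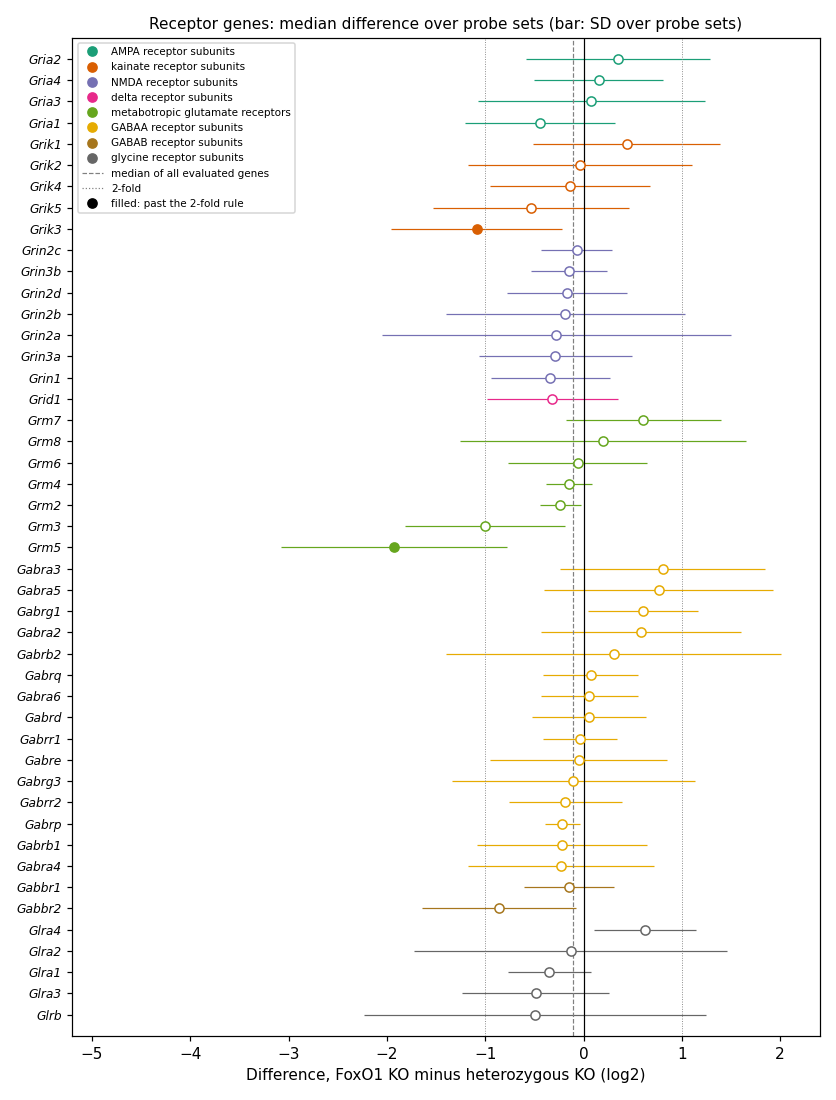
Each point is the difference of 1 receptor gene (log2, FoxO1 KO minus heterozygous KO, horizontal axis), grouped by family, with a bar of 1 SD over its probe sets. Grm5 at -1.93 and Grik3 at -1.09, the filled points, lie left of the 2-fold line, and the GABAA subunits Gabra3, Gabra5, Gabrg1 and Gabra2 form the right edge of their family at 0.80, 0.76, 0.60 and 0.58.

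The 2-fold rule asked for a difference of 1 or more in size, with the same sign in 75% or more of the probe sets. Under this rule 2 receptor genes were lower and none higher, beside 1.12% of all evaluated genes lower and 1.13% higher. The 2 were Grm5 and Grik3, and a count of 2 among 46 (4.35%) is too small to set against that background. At 1.5-fold with the same rule on probe sets, 3 were lower (Grm5, Grik3 and Gabbr2, 6.52%, beside 4.90% of all genes) and 4 were higher (Gabra5, Gabrg1, Grm7 and Glra4, 8.70%, beside 3.28%).

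Grm5 encodes the metabotropic glutamate receptor 5, which couples to Gq and phospholipase C. Its level was 6.70 in KO neurons, against 8.10 in heterozygous neurons, a difference of -1.93 (SD 1.15), at percentile 0.17 of all evaluated genes. Of its 13 probe sets 12 were lower. The brightest 3 on the heterozygous array stood at 7.90, 8.31 and 7.39 on the KO array, against 10.3, 10.3 and 10.1 there. The widest gap was at a probe set with 5.96 in KO neurons, against 9.09 in heterozygous neurons. The exception was higher, by 0.97. With probe sets of every brightness counted the difference was -0.78 over 18 probe sets, of which 15 were lower, and the gene no longer met the rule.

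Grik3, a kainate receptor subunit of low glutamate affinity, stood at 6.95 in KO neurons, against 8.24 in heterozygous neurons, a difference of -1.09 (SD 0.87, 15 of 17 probe sets lower, percentile 0.94). Its probe sets at the ends of the range differed by -3.27 (KO 5.38, heterozygous 8.65) and 0.36 (KO 6.57, heterozygous 6.21). Grik3 is close to the 2-fold line, and with no floor it was at -0.89 over 22 probe sets, 20 of them lower. The oligodendrocyte lists (medians -1.11 and -0.53), Slc17a6 (-4.29, and -1.15 with no floor), Npvf (-2.36), Oxt (-1.01) and 9 of 10 pan-neuronal genes were lower on the same array as Grm5 and Grik3, and their part in these values was not tested.

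Next outside the rule on the lower side were Grm3 and Gabbr2. Grm3, which encodes a Gi-coupled metabotropic receptor that astrocytes also express, differed by -1.002 (KO 6.55, heterozygous 7.45), but only 3 of its 5 probe sets were lower. Of those the dimmest stood at 5.33 on the KO array and differed by -1.67, and the brightest stood at 6.74 against 7.92 on the heterozygous array. The other two stood at 7.69 and 6.55 on the KO array, against 7.64 and 6.36 on the heterozygous array. With no floor Grm3 was at -0.52 over 12 probe sets. Gabbr2, the GABAB subunit that couples to the G protein, differed by -0.86 (SD 0.78, 8.42 in KO and 9.30 in heterozygous neurons), with 20 of 22 probe sets lower and 9 of them by at least 2-fold. Its brightest probe set stood at 10.3 in KO neurons, against 11.5 in heterozygous neurons, and the widest gap was 6.63 in KO and 9.63 in heterozygous neurons.

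**Figure D2:**
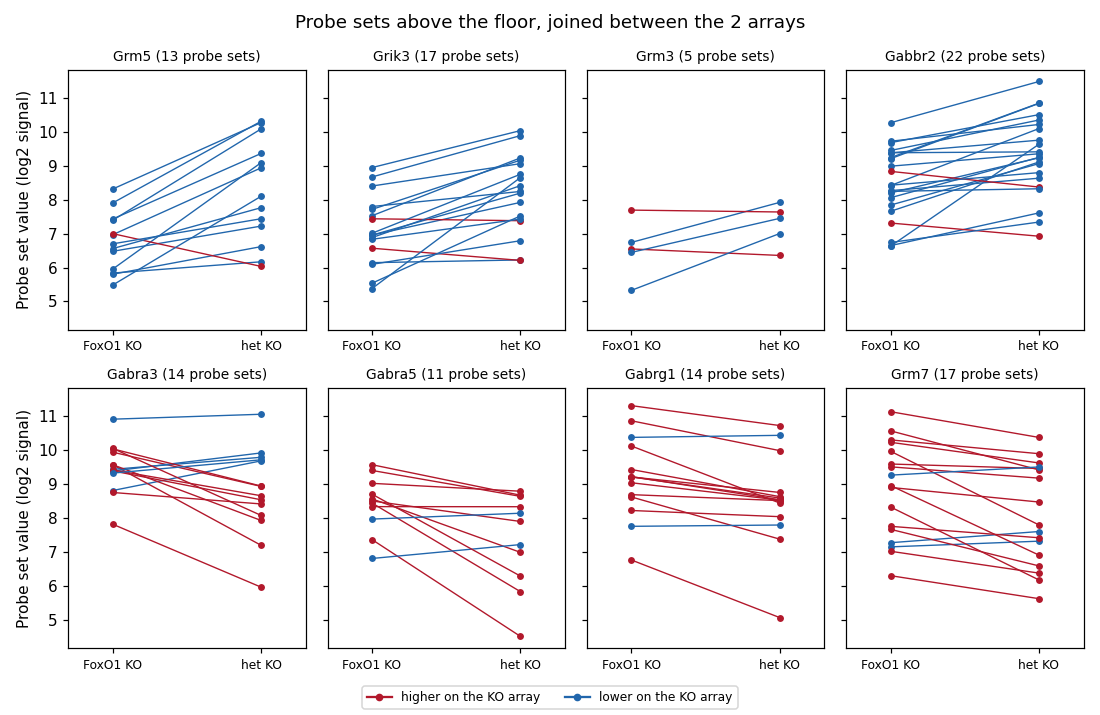
Each line joins 1 probe set above the floor between the FoxO1 KO array (left) and the heterozygous KO array (right), on a vertical axis of log2 signal, for 4 genes with lower and 4 with higher medians. In Grm5, Grik3 and Gabbr2 nearly all lines climb toward the heterozygous array (12 of 13, 15 of 17 and 20 of 22), while Gabra3 is split, with 9 of 14 lines higher on the KO array.

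On the higher side no gene reached 2-fold, and the closest were 2 alpha subunits of the GABAA receptor. Gabra3 stood at 9.43 in KO neurons, against 8.80 in heterozygous neurons, a difference of 0.80 (SD 1.04, percentile 97.6). Its probe sets fell into a split pattern: 9 were higher, with the widest gap at 9.57 in KO and 7.20 in heterozygous neurons, and 5 were lower, with the widest gap at 8.81 in KO and 9.69 in heterozygous neurons. Gabra5, whose subunit is found mostly outside synapses, stood at 8.50 in KO and 7.90 in heterozygous neurons, a difference of 0.76 (SD 1.16), with 9 of 11 probe sets higher. The widest of these gaps was 7.37 in KO and 4.52 in heterozygous neurons, and 4 of the 11 were at least 2-fold higher. By the mean over probe sets Gabra5 was at 1.03 and met the 2-fold rule.

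Promoter sequence is shown for the 2 lowest and the 2 highest members by difference that have a window in the RefSeq table (GRCm38.p6), since FoxO1 is a DNA-binding factor. No window is shown for Grm5. FoxO proteins bind the core GTAAACA and, in insulin-responsive promoters, CAAAACA. Both were searched on both strands in the 250 bases before each start, and no member's window held both. Capitals mark a match, and each line runs 5′ to 3′ on the strand of the gene. Grik3 is at chr4:125490446-125490695 (+), Grm3 at chr5:9725353-9725602 (-), Gabra5 at chr7:57510060-57510309 (-) and the upstream window of 2 for Gabra3 at chrX:72656920-72657169 (-).
Grik3: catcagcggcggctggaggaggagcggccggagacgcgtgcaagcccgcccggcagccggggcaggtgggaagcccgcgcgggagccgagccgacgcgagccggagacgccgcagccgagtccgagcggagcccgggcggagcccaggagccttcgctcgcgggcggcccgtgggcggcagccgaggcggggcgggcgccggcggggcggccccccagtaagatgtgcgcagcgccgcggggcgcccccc
Grm3: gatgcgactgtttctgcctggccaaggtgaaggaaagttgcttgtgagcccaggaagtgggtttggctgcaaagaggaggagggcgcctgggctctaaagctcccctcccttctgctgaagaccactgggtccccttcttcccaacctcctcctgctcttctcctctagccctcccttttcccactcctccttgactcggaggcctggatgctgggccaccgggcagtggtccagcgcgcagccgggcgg
Gabra5: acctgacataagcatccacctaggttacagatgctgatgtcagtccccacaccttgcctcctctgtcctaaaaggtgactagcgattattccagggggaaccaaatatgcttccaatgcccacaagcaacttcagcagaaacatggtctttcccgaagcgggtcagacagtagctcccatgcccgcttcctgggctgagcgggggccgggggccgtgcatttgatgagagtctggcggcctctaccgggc
Gabra3: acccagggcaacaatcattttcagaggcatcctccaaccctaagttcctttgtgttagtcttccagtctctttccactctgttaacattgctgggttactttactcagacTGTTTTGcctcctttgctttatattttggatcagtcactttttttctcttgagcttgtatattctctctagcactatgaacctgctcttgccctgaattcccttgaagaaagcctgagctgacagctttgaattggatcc

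Of these 4, only the Gabra3 window held a match, CAAAACA on the reverse strand 140 bases before the start. The other Gabra3 window, which is not shown, held neither motif. Windows were listed for 36 of the 47 members (43 windows), and 1 window held GTAAACA, that of the rho subunit gene Gabrr1 (difference -0.03), and 1 held CAAAACA. Among all 32851 windows of the same length the shares were 3.17% and 5.56%, against 2.33% for each motif in the members. These are letters in a short window and describe neither binding nor its absence. The windows shown held 82.0% GC for Grik3, 62.4% for Grm3, 56.4% for Gabra5 and 42.4% for Gabra3. Over the 35 evaluated members with a window, GC and difference had a Spearman rho of -0.35, and over 11128 evaluated genes a rho of -0.06. Genes with windows of 65% GC or more had a median of -0.14 in both sets (10 members, 8 of them below 0, and 2970 genes, 67.9% below 0). Under 50% GC the medians were -0.03 over 9 members and -0.09 over 1990 genes. The points share the 2 arrays, and base composition of the probes is not known here.

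AMPA receptor subunits, the pores of fast excitation, held 4 genes with a median of 0.12, the highest of the glutamate receptor families. Gria2, which makes the receptor impermeable to calcium, stood at 10.2 in KO neurons, against 9.66 in heterozygous neurons, a difference of 0.35 (SD 0.94), with 24 of 34 probe sets higher and 9 of them by at least 2-fold. Gria1 went the other way, at 9.43 in KO and 10.3 in heterozygous neurons, a difference of -0.44 (SD 0.76, 17 of 24 probe sets lower). Gria3 (KO 9.28, heterozygous 9.22) and Gria4 (KO 9.12, heterozygous 9.21) had differences of 0.08 and 0.15. So within the AMPA family Gria1 and Gria2 stood on opposite sides of 0, both by less than 1 SD over their probe sets, and both kept their sign under each of the 9 other settings tried.

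Kainate receptor genes, 5 in all, had a median of -0.14 and the widest range of the channel families. Below Grik3 in size came Grik5, a subunit of high affinity that needs a low-affinity partner, at 7.35 in KO and 7.89 in heterozygous neurons (-0.54, SD 1.00, 15 of 19 probe sets lower). Grik1 ran higher, at 7.48 in KO neurons, against 6.78 in heterozygous neurons (0.44, SD 0.95, 17 of 23 probe sets higher), but under the stricter floor (75th percentile of all probe sets) its value was -0.30 over 9 probe sets. Grik2 and Grik4 had differences of -0.03 and -0.14, Grik4 was at 0.20 under the stricter floor, and Grik2 held probe sets 2-fold apart in both directions, 4 lower and 5 higher.

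NMDA receptor genes had the narrowest range of any family with several genes. All 7 were below 0, within a range from -0.34 to -0.07, and 6 of 7 were below the median of all genes as well. By the mean over probe sets 5 of 7 were below 0 and 3 below the median of all genes, with Grin2a at 0.03 and Grin2b at 0.04, and after centring Grin2c was at 0.04. Their own median was -0.19, or -0.08 relative to the median of all genes. Grin1, the subunit every NMDA receptor contains, was the lowest, at 8.49 in KO neurons, against 8.77 in heterozygous neurons (-0.34, SD 0.60, 18 of 28 probe sets lower). The glutamate-binding subunits Grin2a, Grin2b, Grin2c and Grin2d were at -0.28, -0.19, -0.07 and -0.17, and Grin2c, the highest, stood at 6.88 in KO and 6.72 in heterozygous neurons. The glycine-binding subunits Grin3a and Grin3b were at -0.29 and -0.15. Grid1, the delta receptor that binds cerebellins at synapses, was at -0.32 (KO 8.01, heterozygous 7.90), with 10 of 13 probe sets lower.

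Metabotropic glutamate receptors held both ends of the range among glutamate receptor genes, with a median of -0.15 over 7. Opposite Grm5 stood Grm7, a Gi-coupled presynaptic receptor of low glutamate affinity, at 8.96 in KO neurons, against 7.80 in heterozygous neurons. Its difference was 0.61 (SD 0.79), with 14 of 17 probe sets higher and 5 by at least 2-fold. Grm8, of the same group III, was at 0.20 (KO 8.18, heterozygous 7.69) with the widest spread of probe sets in the family (SD 1.45), from -1.71 to 4.44, and at -0.003 with no floor. The other group III genes, Grm4 and the retinal receptor Grm6, were at -0.15 and -0.06. Grm2, the closest relative of Grm3, was at -0.24, with 8 of 8 probe sets lower by small amounts (SD 0.21).

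**Figure D3:**
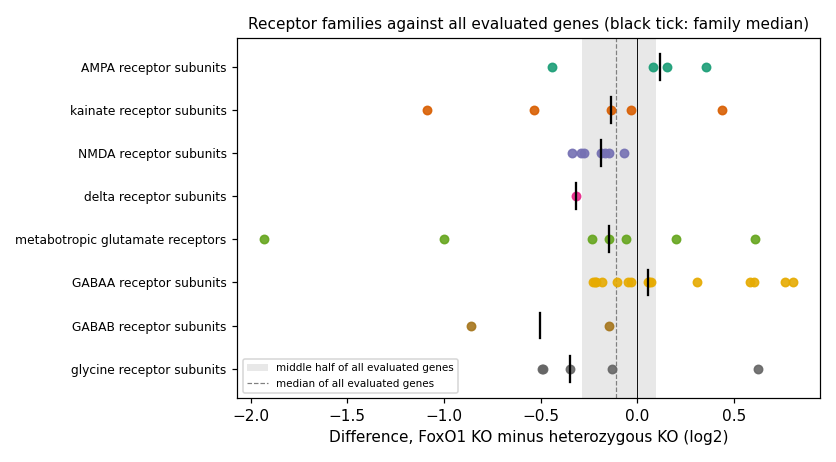
Points are the receptor genes of each family, placed by their difference (log2, FoxO1 KO minus heterozygous KO, horizontal axis), with a black tick at the family median and a grey band from -0.29 to 0.09, the quartiles of all evaluated genes. NMDA subunits lie close together between -0.34 and -0.07, while metabotropic receptors run from -1.93 to 0.61.

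GABAA receptors are rings of subunits, usually alpha and beta with gamma or delta. The 15 evaluated genes had a median of 0.05, with 8 above 0 and 11 above the median of all genes. The alpha, beta and gamma genes, which form most synaptic receptors, had a median of 0.31 over 9, with 6 above 0. The delta, epsilon, pi, theta and rho genes had a median of -0.04 over 6. Gabra3 and Gabra5 were joined on the higher side by Gabrg1 and Gabra2. Gabrg1 stood at 9.21 in KO neurons, against 8.54 in heterozygous neurons (0.60, SD 0.56), and 12 of its 14 probe sets were higher while the lowest was at -0.06. Gabra2, the alpha subunit of many forebrain synapses, stood at 8.27 in KO and 7.55 in heterozygous neurons (0.58, SD 1.02), with 9 of 11 probe sets higher. Gabrb2 was at 0.31 with a wide spread (SD 1.70, from -2.86 to 3.99), and its value under the stricter floor was 0.02.

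Near Gabra2, Gabra3, Gabra5 and Gabrg1 on their chromosomes, the other members of the family had differences smaller in size. Gabrg1 (0.60) and Gabra2 (0.58) are adjacent protein-coding genes on chromosome 5, in a cluster with Gabra4 and Gabrb1. Those other two were at -0.23 (KO 6.72, heterozygous 6.84, the lowest of the family) and -0.22 (KO 8.71, heterozygous 8.85), but with no floor they were at -0.02 and 0.03. On chromosome 7 Gabra5 (0.76) lies next to Gabrg3, which was at -0.11 with 10 of 16 probe sets lower. On the X chromosome Gabra3 (0.80) lies next to Gabrq (0.07), the theta subunit gene, and near Gabre (-0.05), the epsilon subunit gene. Gabre stood at 10.4 in KO neurons, against 10.2 in heterozygous neurons, and Gabrq at 8.71 in KO and 8.65 in heterozygous neurons. Gabrd, whose subunit serves tonic inhibition outside synapses, was at 0.05 (KO 7.15, heterozygous 7.55, 4 of 8 probe sets each way). Gabra6, known from cerebellar granule cells, was at 0.06 with 5 of 16 probe sets above the floor, and Gabrp, Gabrr1 and Gabrr2 were at -0.21, -0.03 and -0.18. All directions of Gabra2, Gabra3, Gabra5 and Gabrg1 held under each of the 9 settings, at 0.36 or more.

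GABAB receptors need both of their subunits. Gabbr1, which binds GABA, stood at 9.68 in KO neurons, against 9.79 in heterozygous neurons (-0.14, SD 0.46, 18 of 28 probe sets lower), close to the median of all genes. Its partner Gabbr2 at -0.86 was thus the lower of the pair, with 20 of 22 probe sets lower.

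Glycine receptor genes had a median of -0.35 over 5, and of 0.14 by the mean over probe sets. Glrb, the subunit that anchors the receptor to gephyrin, stood at 8.83 in KO and 9.31 in heterozygous neurons (-0.49, SD 1.74, 8 of 12 probe sets lower), and was at 0.14 by the mean. One of its probe sets ran far the other way, at 9.30 in KO neurons, against 4.48 in heterozygous neurons, the largest single difference among member probe sets above the floor. The alpha subunit Glra3 was at -0.49 with 4 of 4 probe sets lower, Glra1 at -0.35 and Glra2 at -0.13. Glra1 was at 0.17 with no floor, and Glra2 at 0.44 by the mean. Glra4 was at 0.62 (KO 6.87, heterozygous 6.64, 5 of 6 probe sets higher), but at 0.12 over all 14 of its probe sets. For all 4 alpha genes fewer than 50% of the probe sets reached the floor.

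**Figure D4:**
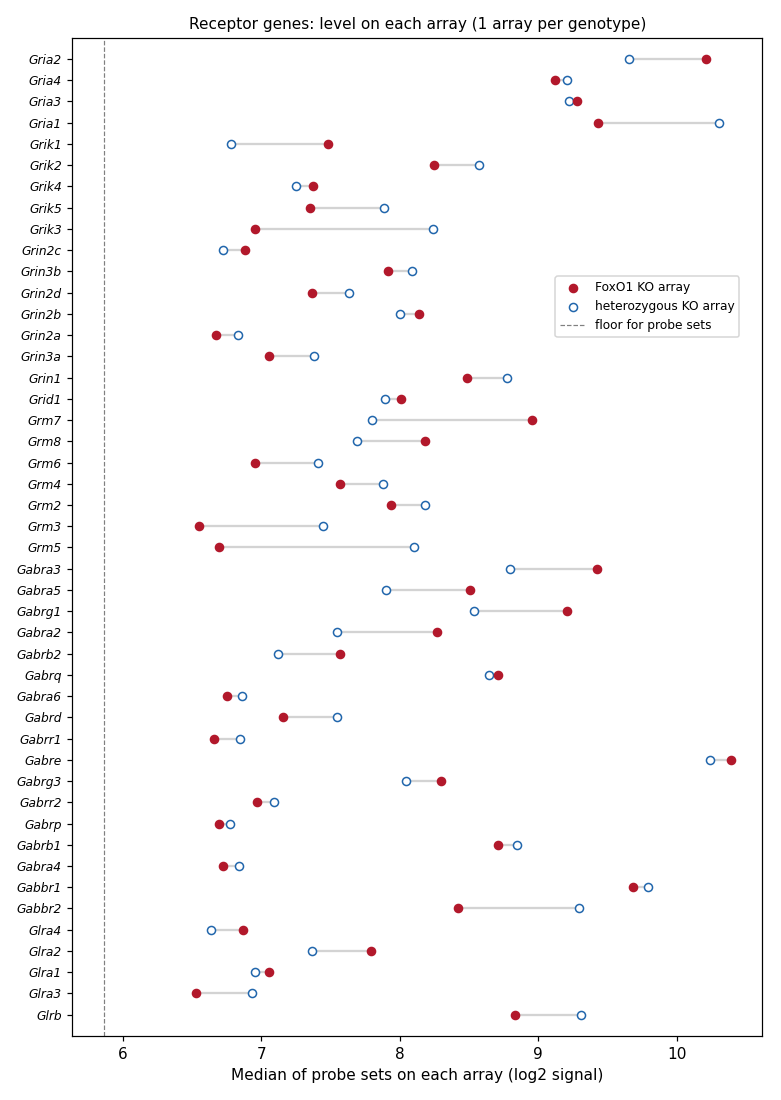
Filled red points are the FoxO1 KO array and open blue points the heterozygous KO array, each the median log2 signal of a receptor gene's probe sets above the floor. The 2 points lie close together for most genes, and the widest gaps include Grm5 (KO 6.70, heterozygous 8.10), Grik3 (KO 6.95, heterozygous 8.24) and Grm7 (KO 8.96, heterozygous 7.80). Signals of different genes are not on a common scale of transcript amount.

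Probe sets of the same gene often differed in direction. Of the 922 member probe sets 683 were above the floor (74.1%, beside 67.8% of all probe sets with 1 symbol). Among them 93 were at least 2-fold lower and 86 at least 2-fold higher, or 13.6% and 12.6%, beside 11.0% and 9.24% of all probe sets with 1 symbol. At least 4-fold, 15 were lower and 29 higher, or 2.20% and 4.25%, beside 2.60% and 2.56%. Of the 29, 12 were under the floor on the heterozygous array, and of the 15, 7 were under it on the KO array. In 15 of the 46 genes (32.6%, beside 28.8% of all evaluated genes) 1 probe set was at least 2-fold lower and another at least 2-fold higher. With 10 or more probe sets above the floor the shares were 40.6% of 32 members and 48.3% of all such genes. Among the 15 were Gria1, Gria2, Gria3 and Gria4, Grik1, Grik2, Grik4 and Grik5, Grin2a and Grin2b. Which exons the probe sets cover is unknown here, so these splits are given as values only.

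Genes that assemble, anchor or follow the receptors were described from 4 lists. Of all evaluated genes 65.2% were below 0 (median -0.11), while 1.12% were past the 2-fold rule on the lower side and 1.13% on the higher side. Of the 13 evaluated auxiliary subunit genes of AMPA and kainate receptors, 11 were below 0 (median -0.33), and Cacng3, an AMPA receptor auxiliary subunit, was the only one past the 2-fold rule, at 5.18 in KO neurons, against 7.74 in heterozygous neurons with 4 of 4 probe sets lower. Neto1 and Neto2, the auxiliary subunits of kainate receptors, were at -0.52 (9 of 11 probe sets lower) and 0.61 (5 of 8 higher). Neto2 was at 0.10 with no floor, and its levels ran the other way (KO 7.51, heterozygous 7.75). Of 26 scaffold and trafficking genes for glutamate receptors 20 were below 0 (median -0.24) and none met the rule, from Cbln4, a secreted ligand of the synapse, at 0.32 to its relative Cbln2 at -0.73 over 4 probe sets, or -0.20 with no floor.

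Of 19 scaffold, trafficking and ion-gradient genes for GABA and glycine receptors 14 were below 0 (73.7%, beside 65.2% of all evaluated genes). Their median was -0.17, with 1 past the rule each way. Slc12a5, the potassium-chloride cotransporter that keeps chloride low in neurons, stood at 7.89 in KO neurons, against 8.85 in heterozygous neurons, a difference of -1.14 (SD 0.98) with 26 of 29 probe sets lower. Slc12a2, which loads chloride instead, was at -0.59 (KO 9.10, heterozygous 9.15, 24 of 31 lower). Kctd16, an auxiliary subunit of GABAB receptors, was higher, at 8.36 in KO and 7.29 in heterozygous neurons (1.08, SD 1.64, 4 of 5 probe sets higher), and at 0.98 with no floor. Of the related Kctd8 and Kctd12 the differences were -0.44 and -0.04, or -0.26 and -0.35 with no floor. Gphn, the gephyrin gene, was at 0.18, and Dmd, the dystrophin gene, at 0.90 with 64 of 75 probe sets higher.

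Of 15 genes of signalling below group I metabotropic receptors 9 were below 0 (60.0%, beside 65.2% of all evaluated genes). Their median was -0.23, and none met the rule. The inositol trisphosphate receptor gene Itpr1 was lowest, at 7.52 in KO neurons, against 8.78 in heterozygous neurons (-0.63, 55 of 68 probe sets lower). The protein kinase C gene Prkca was highest, at 8.87 in KO and 8.22 in heterozygous neurons (0.68, 19 of 22 probe sets higher). The Gq subunit genes Gnaq and Gna11 were at -0.23 and -0.62.

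**Figure D5:**
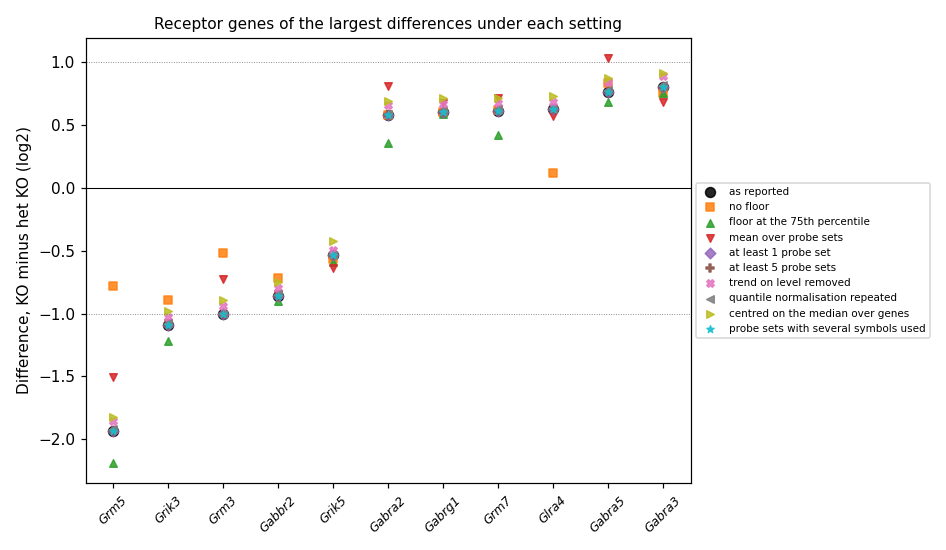
Each symbol is the difference (log2, FoxO1 KO minus heterozygous KO, vertical axis) of a receptor gene under 1 way of summarising, for the genes at 0.5 or more in size. Each of these genes keeps its side of 0 in all settings that evaluated it, while Grm5 runs from -2.19 to -0.78 and Glra4 comes down to 0.12.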

How the data were processed

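Each of 2 arrays (1 per genotype) gave 1 deposited value per probe set, 1235936 in all, on a log2 scale read from the values. Per the submitters' processing notes the authors used RMA and Partek; versions, genome build and exon positions were not given in these sources. RMA as commonly run gives both arrays the same distribution, which hides a change in total RNA. Precision is limited by the number of arrays. Probe sets with 1 gene symbol (318760) named genes, under the floor, the minimum of 3 probe sets and the 2-fold rule stated above. The summary per gene was checked on simulated data. Members and lists were chosen with earlier results of these data known. Named are all members, with values by size, family extremes and brightness (Gabre, Gria2, Gria1, Gabbr1 and Gria3), and from other lists at most 4 genes past the rule by size, or else the highest and lowest (astrocyte, microglia and vascular lists are given by count); Neto1, Neto2, Kctd8, Kctd12, Gphn, Dmd, Slc12a2, Gnaq and Gna11 were named after their values were seen. Alternatives were to drop the floor, to raise it to the 75th percentile, to take the mean over probe sets, to ask for at least 1 or 5 probe sets, to remove the trend on level, to repeat the quantile normalisation, to centre on all genes, to use probe sets of several symbols, to count at 1.5-fold and to waive the agreement of probe sets. Python 3.11.15, numpy 2.4.6, pandas 2.3.3 and matplotlib 3.10.9 were used.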

Additional observations from a re-analysis of the deposited data

How the results depend on the processing

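Of the 46 evaluated genes 18 were below 0 and 10 above 0 under all 9 settings of floor, summary, probe set minimum, scaling and symbols, and 18 changed side in at least 1, most of them close to 0. The count of genes at least 2-fold lower was 0 with no floor, where Grm5 was at -0.78 and Grik3 at -0.89, and 1 with differences centred on the median of all genes, where Grik3 was at -0.98. The count at least 2-fold higher was 1 by the mean over probe sets (Gabra5), and 4 at 1.5-fold. The NMDA median of -0.19 was -0.085 by the mean and -0.076 after centring, and the glycine receptor median was 0.14 by the mean; the cause was not tested, except that centring adds 0.11 to every gene by construction. The median of the AMPA genes stayed above 0 and those of the kainate, NMDA, metabotropic and GABAB genes below 0 in each setting, while that of GABAA genes was -0.02 by the mean. No paired analysis was possible because each genotype has 1 array. Dim probe sets limit the glycine receptor alpha genes, Gabra4, Gabra6, Gabrp, Gabrr2, Gabrr3 and Grm3, of which fewer than 50% of probe sets reached the floor.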
